A study of Homo sapiens with 18 samples.

Results

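The zinc finger genes of chromosome 19 were examined for acetylation of histone H3 at lysine 27 (H3K27ac) and for binding of CTCF in HEK293T cells, a human embryonic kidney cell line. Members were the protein-coding genes of the GENCODE annotation on chromosome 19 of hg38 whose symbol is ZNF followed by a number and at most 1 letter. This gave 246 of 19111 protein-coding genes on the 22 autosomes. They were set beside the other 1230 coding genes of chromosome 19 and beside 250 genes with the same kind of symbol on other chromosomes. Of the 246 members, 208 carried a KRAB box pattern in the translated coding sequence and 38 did not. Position along the chromosome placed 232 members in 10 runs of at least 5 members with neighbouring start sites at most 500 kb apart.

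Zinc finger proteins of this family read DNA through tandem C2H2 fingers, which are mostly coded in the last exon of the gene. The KRAB box binds TRIM28, which brings in SETDB1 and other proteins that methylate and compact chromatin, and many of these proteins silence transposable elements. Their genes stand in clusters that grew by tandem duplication, and in many cell types the finger exons of the genes are themselves covered by H3K9me3, a mark of closed chromatin. H3K27ac marks active promoters and enhancers, and CTCF, itself a C2H2 zinc finger protein, binds promoters, insulators and the borders of chromatin domains.

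The cells were left untreated (CTRL) or given 1 mM valproic acid (VPA), an inhibitor of class I and IIa histone deacetylases, for 1 day, and no other treatment separated the groups. Each antibody had 3 CTRL and 3 VPA libraries, and 6 input libraries were not analysed here. The p-values below measure only the spread between these samples, since the labels do not say that replicates came from separate cultures. The measurement was a list of MACS peaks for each library, with the fold enrichment of each peak at its summit over the background that the caller expected there, with no read count behind it in the files.

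The promoters below are shown because ZNF91 and ZNF93 are much alike yet differ in the mark, and because ZNF112 and ZNF582 are described below. Each is the RefSeq promoter of GRCh38.p14, from 250 bases before to 50 bases after the gene start, written 5′ to 3′ on the strand of the gene. Capitals mark the letters CCGGAAG or its reverse complement, the core that ETS factors recognise.
ZNF91 (chr19:23395422-23395721, minus strand, H3K27ac in 6 of 6 libraries): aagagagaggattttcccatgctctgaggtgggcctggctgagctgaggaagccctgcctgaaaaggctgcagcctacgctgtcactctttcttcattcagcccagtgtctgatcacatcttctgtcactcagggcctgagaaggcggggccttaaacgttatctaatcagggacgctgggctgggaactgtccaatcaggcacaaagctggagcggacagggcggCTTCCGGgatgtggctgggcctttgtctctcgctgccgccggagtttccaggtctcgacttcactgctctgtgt
ZNF93 (chr19:19900696-19900995, plus strand, H3K27ac in 0 of 6 libraries): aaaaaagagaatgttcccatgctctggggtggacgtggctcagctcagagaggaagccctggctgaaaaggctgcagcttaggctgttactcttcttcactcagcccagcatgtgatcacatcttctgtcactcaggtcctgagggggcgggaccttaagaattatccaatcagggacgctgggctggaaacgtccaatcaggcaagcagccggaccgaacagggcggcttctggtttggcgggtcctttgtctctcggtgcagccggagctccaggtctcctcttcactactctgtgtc
ZNF112 (chr19:44356655-44356954, minus strand, the member with the largest increase): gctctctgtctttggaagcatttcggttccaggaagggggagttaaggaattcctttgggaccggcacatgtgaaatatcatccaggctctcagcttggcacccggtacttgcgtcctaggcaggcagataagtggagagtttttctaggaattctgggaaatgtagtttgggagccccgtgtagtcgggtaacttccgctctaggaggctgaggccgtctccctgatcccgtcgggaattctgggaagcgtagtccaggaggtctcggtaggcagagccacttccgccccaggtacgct
ZNF582 (chr19:56393485-56393784, minus strand, among the strongest CTCF members): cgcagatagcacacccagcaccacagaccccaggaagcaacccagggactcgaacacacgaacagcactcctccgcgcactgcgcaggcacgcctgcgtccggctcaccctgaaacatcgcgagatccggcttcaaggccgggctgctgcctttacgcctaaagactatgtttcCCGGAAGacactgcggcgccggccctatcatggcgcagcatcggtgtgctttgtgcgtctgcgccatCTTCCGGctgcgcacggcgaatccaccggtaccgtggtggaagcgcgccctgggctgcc
ZNF91 and ZNF93, whose proteins silence SVA and L1 elements respectively, matched at 254 of 305 aligned columns (83.3%), whereas the other pairs of these 4 promoters matched at 48.9 to 52.1%. ZNF91 carried an H3K27ac peak at its start in every library and ZNF93 in none.

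CTCF sites of members are shown next as 61 bases around a match to a core of CTCF, which was CC, then AG 3 letters on, then GGC 2 letters on, searched on both strands. Capitals mark the match, and each window is written on the strand on which the core reads.
ZNF554 at the start (chr19:2819740-2819800, plus strand): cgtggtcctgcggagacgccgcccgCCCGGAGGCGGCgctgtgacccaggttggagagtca
ZNF20 at the start (chr19:12141299-12141359, minus strand): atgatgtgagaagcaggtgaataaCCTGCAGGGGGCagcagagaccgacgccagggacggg
ZNF763 at the start (chr19:11964029-11964089, plus strand): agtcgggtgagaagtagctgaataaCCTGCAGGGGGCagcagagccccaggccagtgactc
ZNF653 in the gene body (chr19:11496497-11496557, plus strand): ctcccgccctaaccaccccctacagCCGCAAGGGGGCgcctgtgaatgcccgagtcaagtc
ZNF114 in the gene body (chr19:48271293-48271353, plus strand): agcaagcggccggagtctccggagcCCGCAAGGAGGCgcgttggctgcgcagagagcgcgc
ZNF556 in the gene body (chr19:2872343-2872403, minus strand): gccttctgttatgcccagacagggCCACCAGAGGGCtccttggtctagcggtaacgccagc
ZNF653 at the 3′ end (chr19:11482743-11482803, minus strand): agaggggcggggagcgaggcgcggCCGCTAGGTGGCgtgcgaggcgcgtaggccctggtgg
ZNF541 at the 3′ end (chr19:47520169-47520229, minus strand): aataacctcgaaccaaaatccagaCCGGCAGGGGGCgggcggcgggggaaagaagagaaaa
The capitals of the ZNF20 and ZNF763 windows are the same letters, and both cores read on the strand of their gene.

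Between 26299 and 29799 H3K27ac peaks were listed per CTRL library and between 38441 and 40992 per VPA library. For CTCF the ranges were 39818 to 58782 and 36469 to 55325. For both antibodies, replicate 1 had the fewest peaks in each treatment, and it had lower fold enrichments at starts. The promoters of 5 of 5 genes active in every cell had H3K27ac in all libraries, as had 6 of 7 genes reported in HEK293 cells, and 0 of 9 markers of other cell types had it in any library. Read depth is unknown, as the lists hold no counts, and a gene without a peak is one at which none passed the q of 0.05 of the caller.

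Most members carried H3K27ac at the start, within 1 kb of the first base of the canonical transcript. The numbers were 179, 196 and 193 members in CTRL and 181, 196 and 194 in VPA. The shares were 72.8 to 79.7% of members, with 77.0 ± 3.69% in CTRL and 77.4 ± 3.31% in VPA (mean ± SD, n = 3 each), so the groups overlapped. Over all coding genes the share was 59.4 to 64.4%, over the other genes of chromosome 19 it was 51.7 to 57.2%, and over ZNF genes elsewhere it was 80.4 to 83.6%. A peak in all 6 libraries was present at 175 members (71.1%), against 10868 of all genes (56.9%), 592 other genes of chromosome 19 (48.1%) and 197 ZNF genes elsewhere (78.8%). No member gained or lost the start peak in all replicates of one treatment: 0 members had it in 3 VPA and 0 CTRL libraries, where 0.225% of all genes did. A further 27 members had it in 1 to 5 libraries, and 8 of these lacked it only in both replicate 1 libraries.

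**Figure D1:**
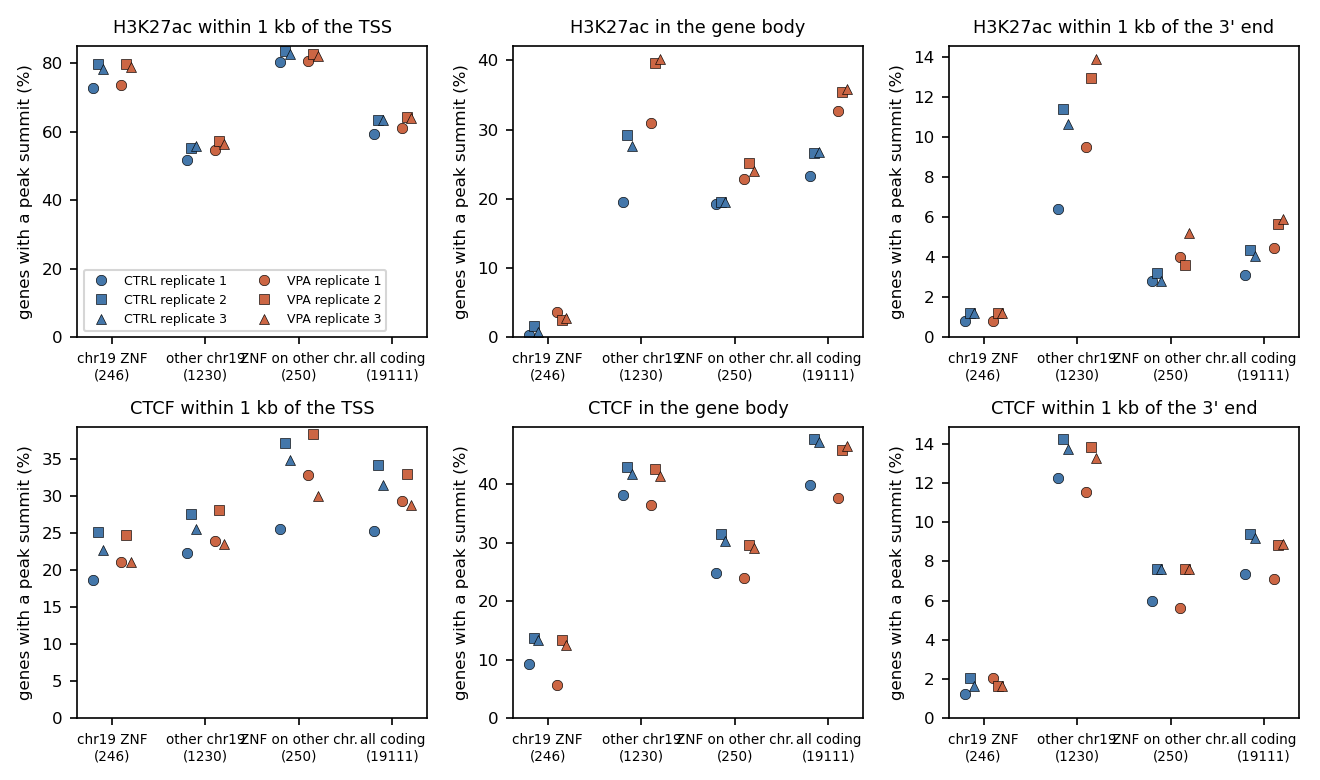
The panels plot the percentage of genes with a peak summit within 1 kb of the start, in the gene body or within 1 kb of the 3′ end. Each point is 1 library, blue for CTRL and orange for VPA with marker shape for the replicate, for the chromosome 19 zinc finger genes, other chromosome 19 genes, ZNF genes elsewhere and all coding genes. Members stand at 72.8 to 79.7% for H3K27ac at the start and at 0.407 to 3.66% in the gene body.

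The mark stayed close to the start in members. Coverage by H3K27ac peaks, as the mean share of members covered over 3 libraries, was 72.4% in CTRL and 73.6% in VPA at the start base, and 73.2% and 75.5% at 500 bp downstream. It was 22.5% and 38.1% at 1000 bp downstream, where other chromosome 19 genes had 36.8% and 46.2%, and 1.36% and 3.52% at 2000 bp, where those had 13.4% and 22.1%. At 1000 bp upstream it was 12.3% and 19.1%. Start peaks of members were narrower than those of all genes. Their median widths were 1181, 1494 and 1509 bp in CTRL and 1448, 1888 and 1782 bp in VPA. Over all genes these were 1848, 2321.5 and 2309 bp and 2140, 2854 and 2667 bp. ZNF genes elsewhere were also below all genes, at 1713, 2095 and 2105 bp and 2040, 2513 and 2425 bp. Other chromosome 19 genes had 1842, 2444.5 and 2425 bp and 2312.5, 3332.5 and 3190.5 bp. Width was not compared at like fold enrichment. The summits of members' start peaks lay 194 to 222 bp downstream of the start in the median of each library.

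**Figure D2:**
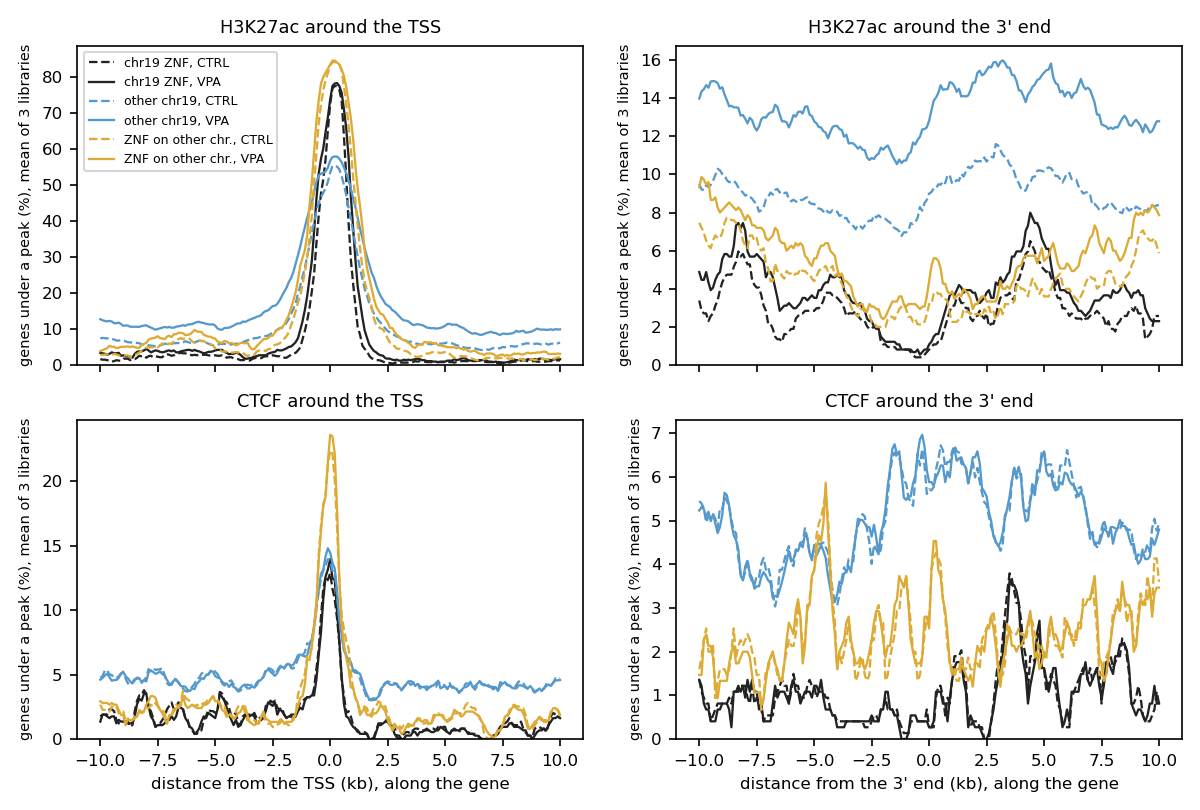
The lines give the percentage of genes under an H3K27ac or CTCF peak (mean of 3 libraries) against distance in kb from the start or the 3′ end, dashed for CTRL and solid for VPA, for members, other chromosome 19 genes and ZNF genes elsewhere. At the 3′ end itself H3K27ac covered 0.813% in CTRL and 1.08% in VPA of members, and 12.8% of other chromosome 19 genes in VPA.

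Beyond the start, H3K27ac was sparse in the bodies of members, and the counts were higher with VPA. A gene body peak was present at 1, 4 and 2 members in CTRL and at 9, 6 and 7 in VPA. The means were 2.33 ± 1.53 and 7.33 ± 1.53 (SD, n = 3 each), and the groups did not overlap. The share of members was 0.407 to 1.63% per CTRL library and 2.44 to 3.66% per VPA library. Over all genes it was 23.3 to 26.8% and 32.7 to 35.8%. Among other chromosome 19 genes it was 19.6 to 29.2% and 30.9 to 40.2%, and among ZNF genes elsewhere 19.2 to 19.6% and 22.8 to 25.2%. The treatments thus did not overlap in any of these sets, and the lack of overlap was not particular to members. Per Mb of gene body, members had 0.199, 1.20 and 0.598 summits in CTRL and 1.99, 1.79 and 2.59 in VPA, and the mean went from 0.664 ± 0.501 to 2.12 ± 0.415 (SD, n = 3 each). The CTRL and VPA means were 22.2 and 41.7 for other chromosome 19 genes, 10.5 and 14.4 for ZNF genes elsewhere, and 9.03 and 14.5 for all genes. When all lists were cut to the length of the shortest, the mean number of members with a body peak was 1.67 (1 to 2) in CTRL and 2.67 (2 to 3) in VPA, so the groups touched. The count depended on what a body is. Taking the outer ends of the gene record in place of the canonical transcript gave 40 to 49 in CTRL and 48 to 50 in VPA. These overlapped. With any overlap of at least 1 bp by a peak it was 39 to 66 and 74 to 110. That overlap count takes in start peaks that reach past the 1 kb limit. At 1000 bp downstream of the start, 22.5% of members in CTRL and 38.1% in VPA lay under a peak. Of 246 members 15 had a body peak in any library and 0 had one in all 6. Only 2 members had it in all VPA and no CTRL library, ZNF536 and ZNF584 (0.813%), where the background over all genes was 2.03%.

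ZNF536, a repressor of neuronal differentiation, had an intronic peak about 54 kb from its start in VPA libraries alone. It was called at chr19:30425936-30426783 with a fold enrichment of 3.85 in VPA replicate 1, at chr19:30426014-30426712 with 3.63 in replicate 2 and at chr19:30425806-30426237 with 4.34 in replicate 3. ZNF584 had weaker peaks of 2.26, 2.19 and 2.34 at chr19:58413735-58414065, chr19:58413973-58414696 and chr19:58413959-58414582. By −log10 q these ranked within the lowest 2.39 to 7.01% of their lists, and the ZNF536 peaks at 19.8 to 36.4%. ZNF787 had body peaks in numbers of 0, 3 and 2 in CTRL and 0, 3 and 5 in VPA and ZNF114 in numbers of 0, 1 and 0 and of 2, 1 and 2. At ZNF114, 1 peak each in CTRL replicate 2, VPA replicate 1 and VPA replicate 3 lay just past the 1 kb limit. Their summits were 1.04 to 1.05 kb from its start and 63 to 76 bp from an annotated start. The region around them had a peak in all 6 libraries, with 5.32, 12.7 and 10.8 in CTRL and 2.98, 8.76 and 11.2 in VPA. Among all body peaks of members, 1, 6 and 3 per CTRL library and 10, 9 and 13 per VPA library, those within 1 kb of any annotated start were 0, 2 and 1, and 1, 2 and 3.

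The last coding exon held no H3K27ac summit in any of the 6 libraries for any of the 246 members. Whether it held the fingers was not checked for each member. Members' last coding exons have a median of 1529 bp and sum to 0.379 Mb. In other chromosome 19 genes, with a median of 156 bp and a sum of 0.391 Mb, 15 to 26 genes had a summit there, or 38.3 to 66.4 per Mb. The 2 sets were not matched for the distance of this exon from the start. Only 4 members had any base of an H3K27ac peak over that exon. CTCF summits lay in the last coding exons of 2 to 3 members per library (5.28 to 7.92 per Mb), against 36 to 42 other genes (94.5 to 110 per Mb). Members' 50-base words were unique within chromosome 19 for 96.0% of the body and 97.6% of the 3′ end in the median. In other chromosome 19 genes the medians were 96.5% and 98.5%. Copies on other chromosomes were not searched, and mappability beyond these medians was not tested.

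At the 3′ end, H3K27ac was found at 2, 3 and 3 members in CTRL and at 2, 3 and 3 in VPA (0.813 to 1.22%), against 3.11 to 5.89% of all genes. ZNF653, which represses NR5A1 activity, and ZNF628 had it in all 6 libraries. At ZNF653 the region chr19:11481284-11483380 had fold enrichments of 2.75, 13.7 and 9.92 in CTRL and 6.74, 19.7 and 24.7 in VPA. Within each replicate number the VPA value was higher. The log2 change was 1.04 (SE 0.71), with an adjusted p of 1.00 by limma, and a fit that took the replicate number as block gave an SE of 0.23 and a limma adjusted p of 0.0109, where 5.14% of all regions were called higher. At ZNF628 the values were 8.35, 23.5 and 24.3 in CTRL and 5.93, 16.6 and 23.7 in VPA, and the summit of its region lay 169 bp from an annotated start.

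The median fold enrichment at starts was lower in members than over all genes. Of the 175 members with a peak in 6 libraries, the medians were 6.89, 17.8 and 17.4 in CTRL and 7.45, 17.7 and 17.2 in VPA, against 9.54, 27.5 and 25.4 and 8.40, 21.6 and 21.7 over all genes. A rank of 100% stands for the highest −log10 q of a list. The median rank of members' start peaks was 63.4, 68.2 and 68.3% in CTRL and 76.7, 78.1 and 77.6% in VPA. VPA lists were longer, and the medians over all genes were 78.0, 80.7 and 80.7% in CTRL and 84.9, 86.2 and 86.1% in VPA. ZNF579 had the highest mean rank of members at 96.4, with 12.3, 47.0 and 65.0 in CTRL and 11.5, 43.1 and 45.1 in VPA. ZNF791 and ZNF490, which start in opposite directions within a shared peak, followed at 94.4, then ZNF414 at 93.1 and ZNF543 at 92.9.

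The change with VPA at starts was tested with limma on log2 fold enrichment over 10868 genes, 175 of them members. No gene was called at an adjusted p of 0.05 (0% of all), with 6 of all genes and 0 members at an unadjusted p below 0.05, and with the lowest adjusted p at 1.00. The spread between libraries was large. limma gave the same SE of the log2 change, 0.72, for each member named below and for the partner genes further down. It is thus a spread pooled over genes and not that of each gene's own values. Median centring of each library gave 0 calls too, at 1740 genes and 28 members below an unadjusted p of 0.05. The values of replicate 1 stood apart in both treatments, and with replicate numbers as a block limma called 168 genes higher with VPA (1.55%) and 1774 lower (16.3%). Members called were 5 higher and 7 lower. A fit with block and median centring was chosen after seeing the data. Its counts were 440 higher (4.05%) and 253 lower (2.33%) over all genes, and 13 higher and 1 lower of members. They were 47 and 5 of other chromosome 19 genes, and 8 and 0 of ZNF genes elsewhere. The median of all genes was −0.27 on the log2 scale before centring.

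The members' median change was −0.02, with 87 of 175 above 0, against −0.12 for other chromosome 19 genes, −0.25 for ZNF genes elsewhere and −0.27 for all genes. After median centring it was 0.24 for members (142 of 175 above 0), 0.14 for other chromosome 19 genes (379 of 592), 0.01 for ZNF genes elsewhere (102 of 197) and −0.01 for all genes (5290). Leaving out 1 library moved the members' uncentred median from −0.45, without CTRL replicate 1, to 0.39, without VPA replicate 1. Within each replicate number the centred median of members was 0.23, 0.24 and 0.24. Members higher in all 3 numbers were 73 of 175 (41.7%). The share was 35.1% of other chromosome 19 genes, 21.3% of ZNF genes elsewhere and 21.3% of all genes. Members lower in all 3 were 12 (6.86%). That share was 13.5% of other chromosome 19 genes, 19.8% of ZNF genes elsewhere and 23.1% of all genes. Genes were also split into 5 equal groups by mean fold enrichment. From the lowest to the highest group, the centred median of members was 0.29 (n = 63), 0.32 (51), 0.22 (32), 0.03 (23) and 0.11 (6), and of all genes 0.26, 0.13, 0.00, −0.11 and −0.26. In the lowest group, which held the most members, other chromosome 19 genes had 0.45 (110 of 120 above 0) and ZNF genes elsewhere 0.44 (22 of 26), both above the 0.29 of members (56 of 63). From there to the highest group, other chromosome 19 genes had 0.26, 0.10, 0.03 and −0.14. ZNF genes elsewhere had 0.07, 0.07, −0.13 and −0.13, below members in each of these groups. Of the 175 members, 63 and 51 were thus in the 2 groups of weakest start peaks, in which the change was higher over all genes too, and members were not tested against other genes of like level.

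**Figure D3:**
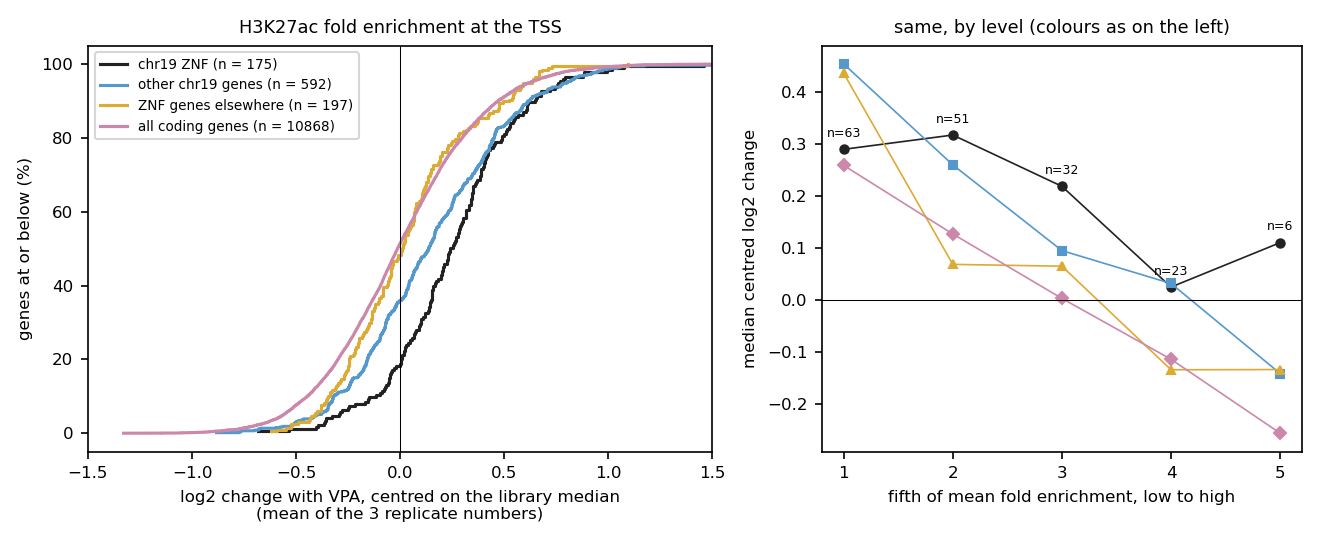
Left, the cumulative percentage of genes against the median-centred log2 change of H3K27ac fold enrichment at the start, VPA over CTRL, for the 175 members and 3 comparison sets. Right, the median of that change in 5 equal groups of genes by mean fold enrichment, with the number of members above their points. Members' median is 0.24 and that of all genes −0.01.

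ZNF112 had the largest rise. It spans chr19:44326555-44356680 on the minus strand, and its fold enrichment was 6.43, 9.48 and 8.08 in CTRL and 14.9, 21.2 and 19.2 in VPA, with no overlap. The log2 change was 1.21 (SE 0.20 with the block), limma adjusted p = 0.00205, and 1.46 after centring, 0.000496. ZNF559 (chr19:9324179-9345871) had 5.97, 17.1 and 16.1 in CTRL and 13.0, 26.7 and 26.2 in VPA, a log2 change of 0.82 and an adjusted p of 0.0123 in limma with the block. ZNF585A had 12.7, 10.8 and 9.28 and then 17.1, 22.7 and 16.3 (log2 0.77, limma adjusted p = 0.0169), and its neighbour ZNF585B had 8.33, 6.85 and 11.9 and 16.0, 14.6 and 10.6, called only after centring (0.88, limma adjusted p = 0.0306). ZNF446 had 4.80, 14.6 and 10.9 and 7.12, 21.8 and 23.2 (0.74, limma adjusted p = 0.0191), and ZNF772 4.57, 9.12 and 8.62 and 8.27, 11.3 and 14.4 (0.63, limma adjusted p = 0.0371). Called only after centring were also ZNF575 (centred log2 change 0.79), ZNF134 (0.77), ZNF350 (0.76) and ZNF175 (0.75). Beyond the 10 members that the naming rule takes, so were ZNF586, ZNF230 and ZNF180 (0.74, 0.72 and 0.68). Calls after centring come from the fit with block and centring that was chosen after seeing the data. In the fit with neither block nor centring, leaving out CTRL replicate 1 turned the log2 change of ZNF134 from 0.51 to −0.11 and that of ZNF180 from 0.43 to −0.042. ZNF350, a partner of BRCA1, had 9.07, 8.32 and 4.83 in CTRL and 15.4, 10.2 and 6.64 in VPA.

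Of the 7 members called lower with the block, ZNF181 had the largest change. ZNF181 (chr19:34734243-34745378) had 16.1, 40.8 and 36.9 in CTRL and 8.58, 15.6 and 25.9 in VPA, a log2 change of −0.93 and a limma adjusted p of 0.00892 with the block, and of −0.68 and 0.0485 after centring. ZNF580, in a start window shared with ZNF581 and CCDC106, had a log2 change of −0.79 (limma adjusted p = 0.0143), which turned to 0.15 when the start was taken from the gene record. The others were ZNF614 (−0.66), ZNF561 (−0.65), ZNF471 (−0.62), ZNF566 (−0.61) and ZNF524 (−0.61), all called with the block only. ZNF614 had 12.2, 23.1 and 25.2 in CTRL and 7.64, 13.5 and 17.4 in VPA.

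**Figure D4:**
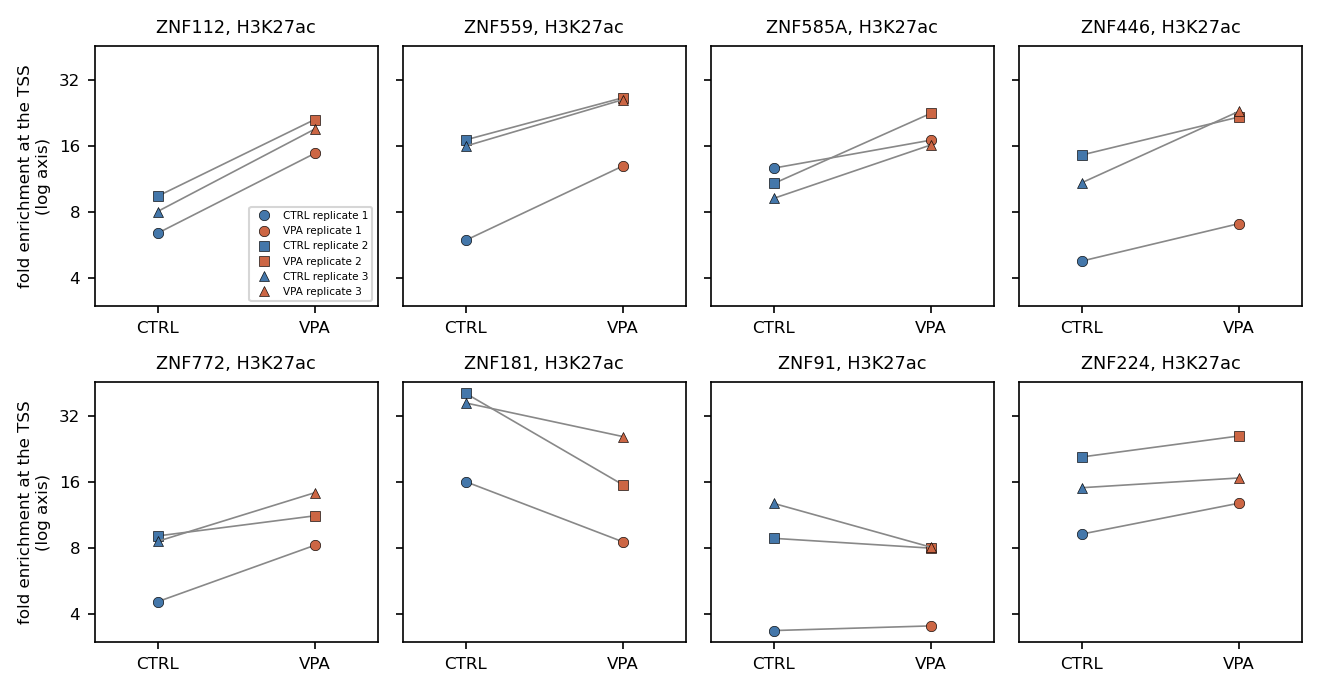
Each panel plots the fold enrichment of H3K27ac at the start of 1 of 8 members on a log axis, blue for CTRL and orange for VPA, with marker shape for the replicate number and a line joining libraries of 1 number. The VPA values of ZNF112 lie at 14.9 to 21.2 and its CTRL values at 6.43 to 9.48, and the values of ZNF91 overlap.

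Of members with a known role, ZNF274, which brings SETDB1 to the 3′ ends of zinc finger genes, had 9.71, 27.5 and 26.1 in CTRL and 8.94, 26.7 and 28.2 in VPA. ZNF91 had 3.38, 8.90 and 12.8 and 3.55, 8.03 and 8.11. ZNF224, ZNF675, ZNF473 and ZNF146 had start peaks in all 6 libraries: ZNF224, a repressor of the aldolase A gene, had 9.31, 20.9 and 15.1 and 12.9, 26.1 and 16.8. ZNF675, an inhibitor of TRAF6 signalling, had 21.2, 17.8 and 34.3 in CTRL and 12.9, 21.7 and 36.4 in VPA. ZNF473, which acts in histone pre-mRNA processing, had 5.68, 13.1 and 14.7 in CTRL and 6.08, 19.7 and 16.1 in VPA, and ZNF146 had 11.1, 25.2 and 25.1 and 10.3, 31.7 and 25.4. In each of these the treatments overlapped. ZNF808, whose loss disturbs pancreas development, had a peak in 2 libraries, with 2.67 in CTRL replicate 2 and 3.02 in VPA replicate 2. ZNF154, whose promoter is methylated in many tumours, and ZNF93 had none.

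Of the 44 members with no H3K27ac at the canonical start in any library, 8 had it at another of their own annotated starts in 1 or more libraries (ZNF581, ZNF404, ZNF587B, ZNF331 and ZNF536 in all 6), and 36 at none of them. ZNF331 is an imprinted gene. KRAB members made up 36 of the 44, as they did 208 of all 246 members, and 20 lay in the runs from ZNF101 to ZNF254 and from ZNF175 to ZNF331, which hold 37 and 39 members. The 5 longest were ZNF536 (185676 bp), ZNF578 (63330 bp), ZNF541 (52459 bp), ZNF90 (43166 bp) and ZNF331 (42125 bp). CpG pairs in the promoter had a median of 17 in the 36 of these with a RefSeq promoter, against 21 in members with the mark in all libraries.

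By KRAB box, 147 of 208 members with the pattern and 28 of 38 without had the mark in all libraries, the median ranks were 71.8 and 83.0, and the median centred log2 changes were 0.27 (124 of 147 above 0) and 0.10 (18 of 28). Members whose window held the start of another coding gene had CTCF there in all libraries in 15 of 48 cases, against 22 of 198. The ETS core, searched on both strands, was found in 98 of 216 members with a RefSeq promoter (45.4%), against 2126 of all 14616 promoters (14.5%) and 13.0% of the other genes of chromosome 19. It was in 45.9% of those with H3K27ac in all libraries and in 14 of 36 (38.9%) of those with none. The NRF1 core GCATGCGC was in 4.17% of members and 4.17% of all promoters, the YY1 word AAGATGGCG in 3.70% and 2.86%, and the ZNF143 word CTACAATTC in 0.926% and 0.445%. The ETS word ends in AAG and the YY1 word begins with it, so matches to them can overlap. The GC content of members' promoters had a median of 59.8%, and of all 63%.

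The runs differed. The ZNF565–ZNF573 run had the start mark in all libraries in 25 of 26 members and no member without it, and the ZNF302–ZNF792 run in 5 of 5, whereas the ZNF101–ZNF254 run (4.46 Mb) had it in 19 of 37 with 9 at none, and 5 of the others lacked it only in both replicate 1 libraries. The ZNF175–ZNF331 run had it in 22 of 39 with 11 at none. The median CpG count was 10 in the ZNF101–ZNF254 run. Away from annotated starts by more than 1 kb, the H3K27ac summits per Mb were 0.897 in CTRL and 0.598 in VPA in this run, 0.166 in both in the ZNF175–ZNF331 run, 0 in both in the ZNF302–ZNF792 run and 0.209 and 0.417 in the ZNF565–ZNF573 run. The ZNF302–ZNF792 run spans only 0.287 Mb, so few summits could fall in it. The values were 5.86 and 10.7 in the ZNF575–ZNF180 run and 11.2 and 25.2 in the rest of chromosome 19. In the remaining runs they were 2.66 and 2.66 (ZNF554–ZNF77), 2.65 and 6.88 (ZNF414–ZNF846) and 2.03 and 5.22 (ZNF653–ZNF791). The last were 5.58 and 8.37 (ZNF628–ZNF835) and 2.07 and 5.17 (ZNF264–ZNF446). The ZNF554–ZNF77 run spans only 0.125 Mb, and its means rest on CTRL replicate 2 and VPA replicate 1 alone (7.99 each). Those of the ZNF175–ZNF331 run rest on CTRL replicate 3 and VPA replicate 2 alone (0.498 each). The ZNF575–ZNF180 run had the highest centred change at the start, 0.39, with 17 of 18 members above 0. The lowest was −0.075 in the ZNF302–ZNF792 run, with 1 of 5 above 0, and the ZNF628–ZNF835 run had −0.05, with 6 of 13.

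**Figure D5:**
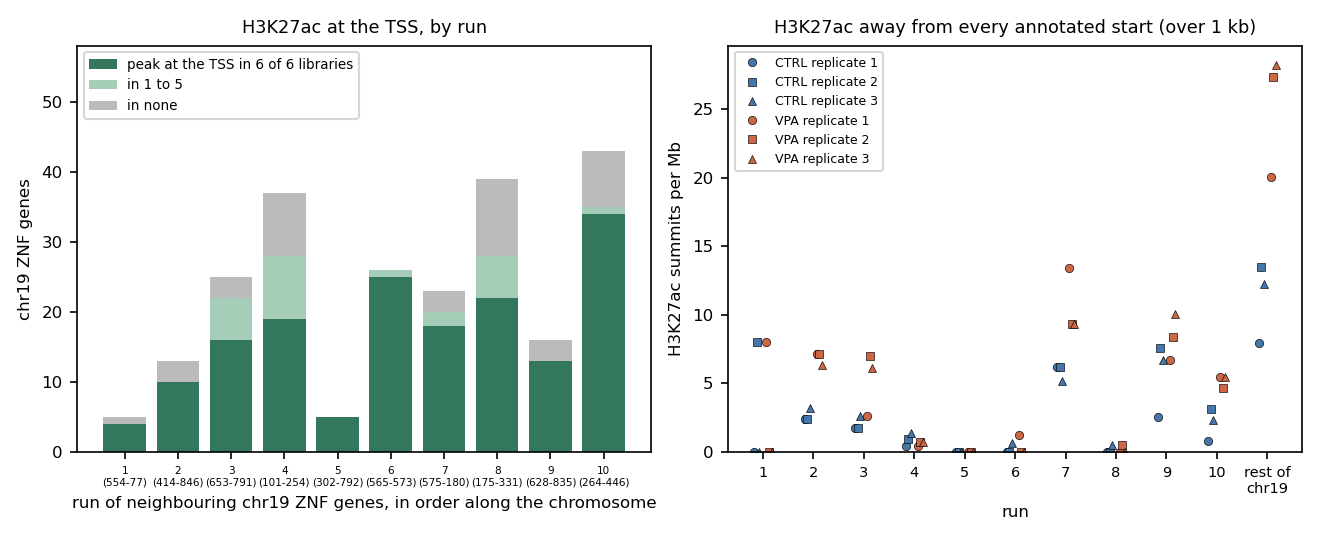
Left, stacked bars give the number of members per run with an H3K27ac peak at the start in 6, in 1 to 5 and in 0 libraries. Right, points give H3K27ac summits more than 1 kb from any annotated start per Mb in each library, blue for CTRL and orange for VPA, for the 10 runs and the rest of chromosome 19. The run ZNF302–ZNF792, which spans 0.287 Mb, has 0 in every library and the rest of the chromosome a mean of 25.2 in VPA.

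CTCF was at the start of 46, 62 and 56 members in CTRL and 52, 61 and 52 in VPA (18.7 to 25.2%). The groups overlapped. The share was 25.3 to 34.2% over all genes and 25.6 to 38.4% over ZNF genes elsewhere. Over other chromosome 19 genes it was 22.3 to 28.1%, a range that overlaps that of members. In all 6 libraries 37 members had CTCF there, and 170 (69.1%) had it in none. The share with none was 67.5% of other chromosome 19 genes and 51.2% of ZNF genes elsewhere. In those 37 the median fold enrichments were 8.76, 13.2 and 10.5 in CTRL and 5.99, 14.3 and 11.3 in VPA. ZNF554 had the strongest start site, with 66.6, 97.4 and 70.2 in CTRL and 101, 121 and 79.8 in VPA (log2 0.36, SE 0.39, limma adjusted p = 0.992). ZNF582 had 44.4, 63.2 and 50.7 in CTRL and 72.2, 104 and 77.8 in VPA (log2 0.68, limma adjusted p = 0.992). ZNF616 had 37.7, 71.1 and 59.7 in CTRL and 86.3, 70.7 and 41.8 in VPA, and its groups overlapped, as did those of ZNF580 and ZNF20. limma called 0 of 4238 genes (0%), with 54 at an unadjusted p below 0.05 and 0 members among them, and 0 of 27794 regions (0%), with 90 below it. The other fits called 0 to 4 of the genes, 0 of them members, and 0 of the regions.

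In gene bodies CTCF was at 23, 34 and 33 members in CTRL and 14, 33 and 31 in VPA (5.69 to 13.8%). The share was 37.7 to 47.8% of all genes, 36.5 to 42.9% of other chromosome 19 genes and 24.0 to 31.6% of ZNF genes elsewhere. At the 3′ end CTCF was at 3, 5 and 4 members in CTRL and 5, 4 and 4 in VPA. The 14 members with a body site in all 6 libraries held 15 regions, of which 12 lay in introns and 3 in exons, and 5 were within 1 kb of a start. By mean rank the strongest 5 were in ZNF653 (90.4), ZNF787 (84.7), ZNF114 (77.7), ZNF556 (75.2) and ZNF444 (71.8). In the intron of ZNF556 the fold enrichments were 46.7, 44.9 and 50.3 in CTRL and 10.3, 57.9 and 33.8 in VPA, with the low value in VPA replicate 1. ZNF653 had 53.6, 68.7 and 65.7 in CTRL and 48.5, 111 and 75.0 in VPA at its intronic site, and these groups overlapped. The core was within 50 bp of the summit in 8 of 15 body regions (53.3%), 9 of 35 start regions (25.7%) and 2 of 3 at the 3′ end, against 41.6% of all chromosome 19 regions and 1.21% of windows along the chromosome. It read opposite to the gene in 7 of the 8 body regions and in 5 of the 9 start regions. At the 3′ end it read on the strand of the gene in 2 of 2. Its direction was not counted for other regions of chromosome 19. At the 3′ end of ZNF653 CTCF had fold enrichments of 56.0, 102 and 109 in CTRL and 105, 114 and 128 in VPA, with the highest mean rank of these sites at 99.2, beside the H3K27ac region described above. ZNF541, a testis gene, had 4.18, 3.23 and 4.00 in CTRL and 9.41, 9.89 and 7.80 in VPA at its 3′ end, with no overlap, a log2 change of 1.25 (SE 0.37) and a limma adjusted p of 1.00.

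Of 22 partners of KRAB zinc finger proteins, 20 had H3K27ac at the start in all 6 libraries, CBX3 had it in 1 and CHD3 in 0. limma called 0 of them without the block and 6 lower with it, where 16.3% of all genes were lower, including TRIM28 (−0.78, limma adjusted p = 0.0143) and SETDB1 (−0.93, limma adjusted p = 0.0113), and 0 with block and centring. Their median centred log2 change was −0.17, with 5 above 0. The start peaks of the 20 had mean ranks of 71.3 to 99.4. In the 2 groups of strongest start peaks, the centred median over all genes was −0.11 and −0.26. Partners were not tested against other genes of like level. Of the 5 genes active in every cell, 3 were lower with the block, and their median centred change was −0.39.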

How the data were processed

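HEK293T chromatin was immunoprecipitated by the authors with antibodies to H3K27ac and CTCF, and 12 peak lists were used. Per the labels and the study's methods the authors aligned reads to hg38 with Bowtie2 and called peaks per library with MACS3 (3.0.0a7) at q of 0.05, and DiffBind was used by them for comparisons not used here. The deposited lists give a fold enrichment (ratio) at the summit, −log10 p and q-value columns, a score that equalled 10 times −log10 q for 99.0 to 99.9% of peaks per list, and the summit offset. The lowest −log10 q was 1.30. Peaks were assigned by summit to the start and the 3′ end of the canonical transcript (GENCODE release 44, MANE Select for 245 members), 1 kb on each side, and to the gene body between. Fold enrichment was tested on the log2 scale with limma 3.58.1 in R 4.3.3, over genes or regions with a peak in all 6 libraries, with Benjamini-Hochberg adjustment at 0.05. Read depth is unknown, so no counting interval could be given.

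Members and lists were chosen with earlier results of these data known, and no p-value is given for a score over them. Genes were named by rule: called members, at most 10 per direction and fit by the size of the change, those with a peak in every library of 1 treatment only, the 5 strongest per place, the 5 longest without a start peak, and a list with known roles and partners. KRAB and C2H2 patterns came from translated GENCODE coding sequences. Same-numbered libraries were checked for pairing: for H3K27ac the deviations from the group mean correlated at 0.67, 0.26 and 0.30 for starts and 0.87, 0.59 and 0.59 for regions, so the number was also fitted as a block (numbers 2 and 3 correlated across numbers too, at 0.35 and 0.27 for starts, so the block mainly sets replicate 1 apart), whereas for CTCF they were 0.33, 0.06 and 0.29 for starts and 0.34, −0.05 and 0.48 for regions. Scripts were tested on simulated data, where the fit without the block called none of the changed features at the spread of H3K27ac. Python 3.11.15, pandas 2.3.3, numpy 2.4.6, Biopython 1.88 and matplotlib 3.10.9 were used.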

Additional observations from a re-analysis of the deposited data

How the results depend on the processing

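Alternatives to the window, the overlap, the transcript ends, the list length, the centring, the q-value minimum and the left-out library left 152 combinations of a main result and an alternative within the spread of replicates or within 1.5 times the count, and 16 moved. For single named members, 226 combinations kept direction and call, 26 gained a call, all with the replicate block, and 3 changed sign. The members' median log2 change, near 0 for both antibodies, changed sign under 7 of 13 alternatives for H3K27ac at starts (−0.45 to 0.39) and under 5 of 13 for CTCF (−0.23 to 0.22). The difference in members with an H3K27ac body peak was 1.00 at equal list lengths. Counting any overlap of at least 1 bp takes in start peaks that reach past 1 kb. With it the difference was 40.7 (54.7 in CTRL, 95.3 in VPA). For the 3′ end it was 1.67 with overlap, 0.667 with gene record ends and 0.667 with 2 kb windows, and for CTCF at the 3′ end 1.33 at equal list lengths. With the replicate block limma called 1942 H3K27ac starts and 2641 regions, 12 and 8 of them members. The replicate block with median centring, an alternative chosen after seeing the data, called 693 and 2383, 14 and 8 of them members. For CTCF starts the block called 4, and leaving out a library gave 0 to 1, with 1 without VPA replicate 2. Without CTRL replicate 1 the log2 change of H3K27ac was −0.042 at ZNF180 and −0.11 at ZNF134, and the ranges over left-out libraries reached 0.77 and 1.07, both without VPA replicate 1. With gene record ends the change was 0.15 at ZNF580. The cause of these was not tested.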
